A study of Mus musculus with 24 samples.

Results

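Neat1, Malat1, Dleu2, Meg3, Gas5 and Snhg1 are 6 long noncoding RNAs, picked by name from the 35275 genes of an RNA-seq table of mouse white fat, of which 5385 carry a long noncoding type. They were chosen with the knockout differences of these same libraries known. Their differences between groups are therefore given as a description with their errors. Where calls made over all genes included a member, the share of all genes called stands beside them, and nothing is read from those calls. All 6 passed the filter on low values, a mean of at least 0.5 FPKM (reads scaled by gene length and by library depth), in every comparison.

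The study compared conditional adipose FoxO1 knockout mice with mice carrying floxed FoxO1 (the controls), in gonadal and in inguinal white fat, to find genes that the transcription factor FoxO1 regulates. Each of the 4 groups (gonadal control, gonadal knockout, inguinal control, inguinal knockout) held pads of 3 mice, M5, M9 and M12 for the knockout and M6, M7 and M10 for the controls. Each pad had 2 libraries, the first and the second below (the second has a mark added to its name), whose values were averaged, so n = 3 mice throughout. The labels give no treatment. The sources used here do not give the Cre driver, the deleted exons, sex or age, nor whether animals were littermates, and the errors below measure the spread between these pads.

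Long noncoding RNAs act without being translated, and these 6 work in different ways. Neat1 is the scaffold of paraspeckles, nuclear bodies that hold RNA-binding proteins and retained transcripts, and only its long form builds them. Malat1, its neighbour on the chromosome, gathers in nuclear speckles beside splicing factors. Dleu2 is the host transcript of the microRNAs miR-15a and miR-16-1, which restrain the cell cycle. Meg3 is made from the maternal copy of the imprinted Dlk1-Dio3 domain. Gas5 and Snhg1 carry small nucleolar RNAs in their introns, and their spliced exons start with a pyrimidine tract and are destroyed by nonsense-mediated decay while they are translated.

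On mm10, Neat1 (ENSMUSG00000092274) lies at chr19:5824708-5845478 on the minus strand and Malat1 (ENSMUSG00000092341) at chr19:5795690-5802672 on the same strand. Dleu2 (ENSMUSG00000097589) spans chr14:61602839-61682373 on the minus strand, and Meg3 (ENSMUSG00000021268) chr12:109541001-109571726 on the plus strand. Gas5 (ENSMUSG00000053332) is at chr1:161034422-161038539 and Snhg1 (ENSMUSG00000097188) at chr19:8723496-8726442, both on the plus strand. GENCODE M21 gives the same coordinates for 5 of the 6, and another gene ID and coordinates for Snhg1. The table scaled Neat1 by 20771 bases, the length of its long single-exon transcript. The short form Neat1-202 is 3004 bases in 2 exons and lies between bases 3 and 3172 of the long one, so 1 FPKM value covers both forms. The last 60 bases of the short form (GRCm38 chr19:5842307-5842366, minus strand, GENCODE M21) show where the forms part, with the last AATAAA, the letters of the common polyadenylation signal, in capitals:
Neat1-202 end: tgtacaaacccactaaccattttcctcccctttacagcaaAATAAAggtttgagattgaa

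Dleu2 had the largest inguinal difference of the 6 between knockout and control, and miR-15a and miR-16-1 lie in an intron of 8 of its 15 annotated transcripts and in an exon of none. The mature sequences (RefSeq, GRCm38.p6, chr14:61632075-61632096 and chr14:61631936-61631957, minus strand) are shown with the seed, bases 2 to 8, in capitals, since both share it. These libraries did not measure mature microRNAs.
mmu-miR-15a-5p: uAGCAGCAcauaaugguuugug
mmu-miR-16-5p: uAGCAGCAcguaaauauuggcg
The Dleu2 promoter window (RefSeq, GRCm38.p6, chr14:61682324-61682623, minus strand) has the transcribed bases in capitals and a GC content of 69.0%, beside a median of 52.7% over 32851 windows of the same length.
Dleu2 promoter: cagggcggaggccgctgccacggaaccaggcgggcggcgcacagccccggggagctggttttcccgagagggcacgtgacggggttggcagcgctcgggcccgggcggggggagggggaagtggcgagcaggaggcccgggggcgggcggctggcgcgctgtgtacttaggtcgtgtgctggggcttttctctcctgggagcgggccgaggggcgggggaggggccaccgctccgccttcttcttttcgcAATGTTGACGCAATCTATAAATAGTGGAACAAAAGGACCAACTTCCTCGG

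Gas5 and Snhg1 moved together across pads, and the 100 bases around their starts (RefSeq, GRCm38.p6, plus strand, chr1:161035116-161035215 and chr19:8723437-8723536) are shown with the unbroken run of C and T that opens the transcript in capitals. The run was 5 bases in Gas5 and 3 in Snhg1. RefSeq has a second, upstream Gas5 start (window chr1:161034351-161034650, not shown), where the run was 0. A start with C and at least 5 pyrimidines was found in 2.51% of the 32851 windows, and one with at least 3 in 5.81%.
Gas5 start: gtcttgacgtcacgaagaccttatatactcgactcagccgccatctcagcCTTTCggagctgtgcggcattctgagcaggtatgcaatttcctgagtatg
Snhg1 start: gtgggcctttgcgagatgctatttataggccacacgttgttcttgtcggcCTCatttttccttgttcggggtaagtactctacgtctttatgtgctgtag
RefSeq held 7 promoter windows for 5 of the 6 members and none for Neat1, so the Neat1 promoter was not searched. The FoxO-type motifs GTAAACA and ATAAACA, searched on both strands, occurred in 3.65% and 4.60% of all windows and in 0 of these 7, which says only that these letters are not in these windows.

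Library totals ran from 14953657 to 25438811 reads, and a member had from 91 reads (Dleu2) to 40107 reads (Neat1) in a library. Foxo1 itself stood at 4.18 ± 0.24 FPKM (SD, n = 3) in knockout and 10.3 ± 2.9 in control gonadal fat, and at 4.10 ± 1.60 and 15.7 ± 3.5 in inguinal fat, with the deleted part not separable from the rest. Summed adipocyte markers (7 of 7 found) were high in every pad, from 6864 to 27008 FPKM. The inguinal pads of M7 (control) and M9 (knockout) nearly lacked B and T cell transcripts, with a summed 6.71 and 7.08 FPKM of 11 markers against 241 to 380 in the other 4 inguinal pads. The gonadal pads of M6, M10 (controls) and M12 (knockout) held epididymal transcripts, 444 to 4845 FPKM over 8 markers against 0.458 to 1.44 in the other 3. In the knockout against control comparisons limma, at a Benjamini-Hochberg adjusted p under 0.05, called 0 of 14851 gonadal genes (0%) and 3 of 13621 inguinal genes (0.022%), with 1291 and 2024 genes at an unadjusted p under 0.05. On rebuilt reads edgeR called 0 and 2 genes and DESeq2 called 313 and 661.

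Neat1 went in opposite directions in the 2 depots. In gonadal fat the knockout pads held 72.0 FPKM in M5, 84.5 in M9 and 73.1 in M12, and the control pads 47.8 in M6, 49.8 in M7 and 65.6 in M10. Every knockout pad lay above every control pad. The means were 76.5 ± 6.9 and 54.4 ± 9.8 FPKM (SD, n = 3), a ratio of 1.41 and a difference of 0.50 (SE 0.14) on the log2(FPKM + 0.5) scale. In inguinal fat the knockout pads held 33.5 FPKM in M5, 37.9 in M9 and 40.5 in M12, and the control pads 55.0 in M6, 45.1 in M7 and 58.7 in M10. Here every knockout pad lay below every control pad, at means of 37.3 ± 3.6 and 52.9 ± 7.0 FPKM, a ratio of 0.705 and a log2 difference of -0.49 (SE 0.12). The knockout difference in gonadal fat minus that in inguinal fat was 0.99 (SE 0.20). Over all genes, knockout pads lay wholly above the control pads for 6.79% and wholly below for 7.54% in gonadal fat (14.3% in all), and for 5.28% and 17.3% in inguinal fat (22.5% in all). Of the 6 members 1 lay above and 0 below in gonadal fat, and 0 above and 3 below (Neat1, Dleu2 and Meg3) in inguinal fat. The pattern of Neat1, higher in one depot and lower in the other with no overlap in either, occurred in 45 of 14577 genes (0.309%), and the reverse pattern in 4 (0.0274%). Groups were apart in the same direction in both depots for 2.54% of genes (lower) and 1.55% (higher), and for 0 of the 6. Since the members were chosen for their values, nothing is read from these shares. The other long noncoding genes among the 45 were Gm15445, C430049B03Rik and 4930458D05Rik, named after their values were seen, with means of 0.624 to 1.31 FPKM over the 12 pads against 55.3 for Neat1.

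**Figure D1:**
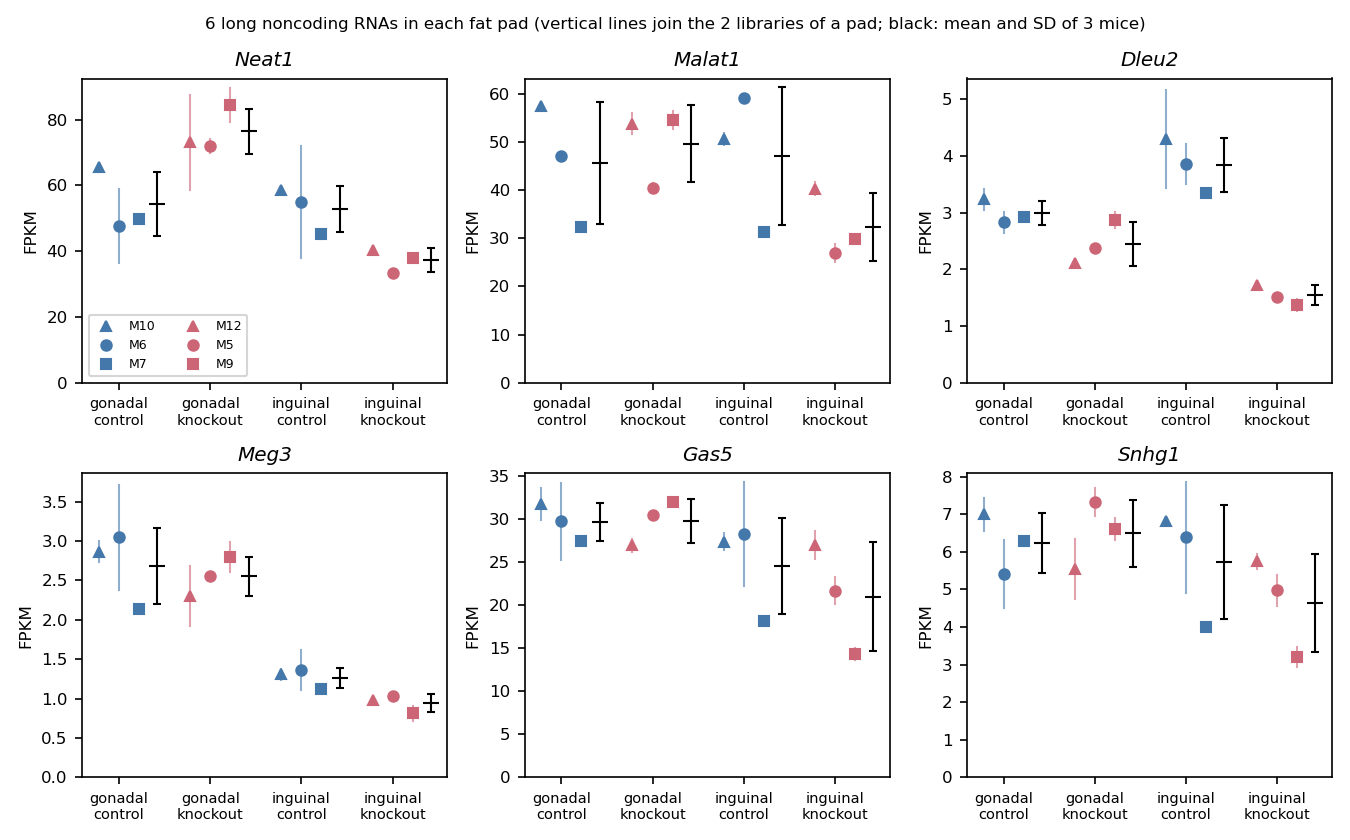
FPKM of the 6 long noncoding RNAs (y axis, from 0) in each pad of the 4 groups (x axis). Symbols are mice, vertical lines join the 2 libraries of a pad, and black marks give the mean and SD of 3 mice; Neat1 and Dleu2 show knockout inguinal pads below all control inguinal pads, and Neat1 shows knockout gonadal pads above all control gonadal pads.

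The order of Neat1 levels was gonadal knockout, gonadal control, inguinal control and inguinal knockout. The middle pair overlapped, at 47.8 to 65.6 FPKM in gonadal and 45.1 to 58.7 FPKM in inguinal control pads. By group means, gonadal fat therefore held 2.05 times the Neat1 of inguinal fat in the knockout and 1.03 times in the controls. Among the control mice the gonadal pad was lower than the inguinal pad in M6 (47.8 and 55.0 FPKM). It was higher in M7 (49.8 and 45.1 FPKM) and M10 (65.6 and 58.7 FPKM).

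The 2 libraries of a pad did not always give the same Neat1 level. M6 gave 36.5 and 59.0 FPKM in gonadal fat and 37.9 and 72.1 in inguinal fat, and M12 gave 87.5 and 58.8 in gonadal fat, the first value being the first library. For Neat1 these 3 of 12 pads fell outside the range between the 5th and 95th percentiles for that library pair. The range was taken over the 13053 genes with a mean of at least 1 FPKM. The other 9 pads fell inside it. In every pad, the genes below the 5th and above the 95th percentile lie outside that range by definition. With the first library of each pad alone, the gonadal groups were apart (ratio 1.56) and the inguinal groups overlapped (ratio 0.794). With the second library alone, the gonadal groups overlapped (ratio 1.27) and the inguinal groups were apart (ratio 0.635). The direction was the same with either library, while the separation of the groups was not. Snhg1 left that range in 3 pads, Gas5 and Meg3 in 2 each and Dleu2 in 1, and Malat1 in 0 of 12. In each of the 3 pads where Neat1 stood out, Snhg1 was also outside its range and on the same side.

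**Figure D2:**
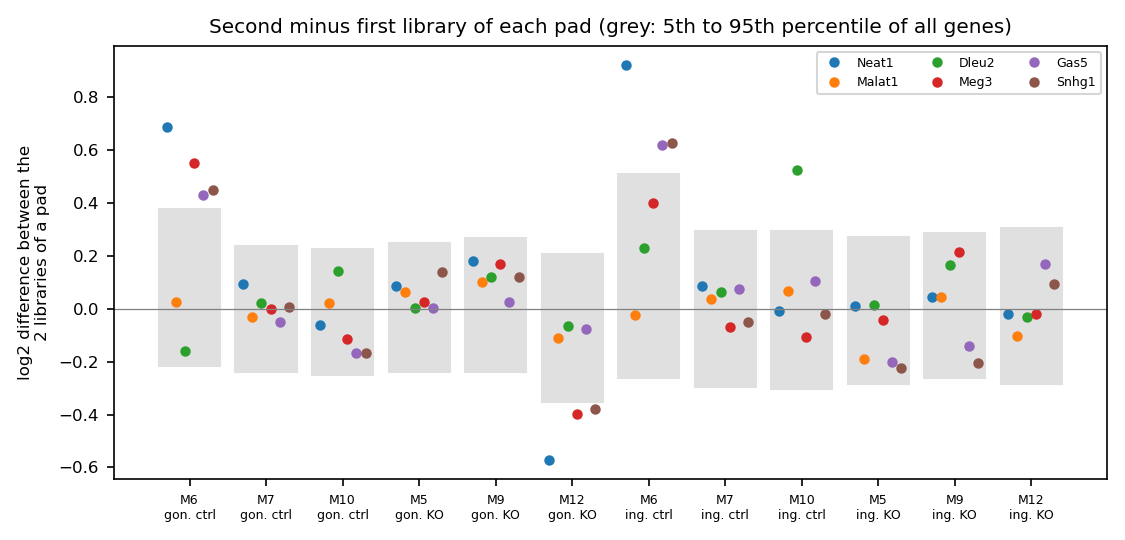
Log2 difference, second minus first library of the same pad (y axis), for the 6 RNAs in the 12 pads (x axis). Grey shows the 5th to 95th percentile of the 13053 genes with a mean of at least 1 FPKM. Neat1 lies outside the grey range in both pads of M6 and in the gonadal pad of M12, while Malat1 stays inside it in every pad.

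Other transcripts moved with these groups. In gonadal fat adipocyte markers summed to 9158 to 13563 FPKM in knockout and 6864 to 7474 in control pads, and red blood cell transcripts (6 of 6 found) to 1611 to 4180 and 4222 to 13579. In inguinal fat macrophage markers (6 of 7 found) summed to 223 to 447 FPKM in knockout and 463 to 1027 in control pads, progenitor and fibroblast markers (7 of 7) to 576 to 693 and 872 to 1055, and red blood cell transcripts to 2297 to 2558 and 3059 to 10521. None of these ranges overlapped between genotypes, and their part in the values of the 6 RNAs was not tested. In bulk tissue, fewer cells of a type and less RNA per cell cannot be told apart. Splitting the pads by epididymal or lymphocyte content left 1 or 2 pads a genotype in each subset, and the sums given above for that depot still lay apart by genotype within them. Among the gonadal pads with epididymal transcripts Neat1 stood at 73.1 FPKM in the knockout (M12) and 47.8 and 65.6 in the controls. Among those without, Neat1 stood at 72.0 and 84.5 in the knockout and 49.8 in the control (M7). Among the inguinal pads with lymphocyte transcripts it was 33.5 and 40.5 FPKM in the knockout and 55.0 and 58.7 in the controls. Without them it was 37.9 in M9 and 45.1 in M7, a log2 difference of -0.25 against -0.62 with them.

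Malat1, the speckle RNA next to Neat1, overlapped between genotypes in both depots. Its gonadal level was 40.5, 54.7 and 53.9 FPKM in M5, M9 and M12 and 47.2, 32.3 and 57.5 FPKM in M6, M7 and M10, a log2 difference of 0.15 (SE 0.24) that turned to -0.08 without M7. In inguinal fat it was 26.9, 29.8 and 40.4 FPKM in the knockout and 59.2, 31.2 and 50.7 in the controls (log2 difference -0.51, SE 0.27). The inguinal groups overlapped because the knockout pad of M12, at 40.4 FPKM, lay above the control pad of M7, at 31.2 FPKM. Neat1 and Malat1 correlated at r = 0.76 over the 12 pads, and at 0.77 with the group means subtracted, as a description of pads that share mice and depth. Frmd8, the protein-coding gene 4224 bases from Neat1, stood at 12.5 ± 1.9 FPKM in knockout and 13.0 ± 1.4 in control gonadal fat, and at 7.58 ± 1.17 and 6.96 ± 1.21 in inguinal fat (SD, n = 3 mice). It differed between genotypes by less than its SD in each depot.

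Dleu2, the miR-15a and miR-16-1 host, showed the largest knockout difference of the 6, in inguinal fat. Its inguinal level was 1.52, 1.38 and 1.73 FPKM in M5, M9 and M12 and 3.86, 3.35 and 4.31 FPKM in M6, M7 and M10. The groups did not overlap, and the knockout mean of 1.54 ± 0.18 FPKM was 40.2% of the control mean of 3.84 ± 0.48 FPKM (log2 difference -1.08, SE 0.14). Both libraries of each pad kept the groups apart. The difference was -1.11 in pads with lymphocyte transcripts and -1.04 in the pair without. In gonadal fat the levels were 2.38, 2.87 and 2.11 FPKM in the knockout and 2.83, 2.92 and 3.23 in the controls. There the groups overlapped, and the log2 difference was -0.25 (SE 0.13). The knockout difference in gonadal minus inguinal fat was 0.83 (SE 0.18), so the depots took opposite orders: control inguinal pads lay above control gonadal pads, and knockout gonadal pads above knockout inguinal pads, with no overlap in either genotype. Over all genes, control gonadal pads lay wholly above control inguinal pads for 38.7% and wholly below for 20.2% (58.9% in all), and knockout pads for 46.9% and 16.6% (63.5% in all).

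Dleu2 shares 3108 bases of its span with the opposite-strand gene Trim13, with 0 exon bases in common in GENCODE M21. The sources used here do not say whether reads were counted by strand. Trim13, a ubiquitin ligase, stood at 2.32 ± 0.22 and 2.50 ± 0.03 FPKM in knockout and control inguinal fat and at 4.23 ± 0.62 and 4.01 ± 0.79 FPKM in gonadal fat. Gm26916, an opposite-strand lincRNA inside the Dleu2 span, stood at 5.93 ± 1.85 and 3.38 ± 0.06 FPKM in knockout and control gonadal fat and at 1.81 ± 0.20 and 1.47 ± 0.67 in inguinal fat.

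Meg3, the imprinted RNA, was higher in gonadal than in inguinal fat. Its gonadal level was 2.56, 2.80 and 2.31 FPKM in M5, M9 and M12 and 3.05, 2.13 and 2.87 FPKM in M6, M7 and M10. Those groups overlapped, at a log2 difference of -0.05 (SE 0.15). In inguinal fat it was 1.04, 0.812 and 0.981 FPKM in the knockout and 1.36, 1.12 and 1.31 in the controls, with no overlap and a log2 difference of -0.29 (SE 0.14). Gonadal fat held 2.13 times the inguinal level in control mice and 2.71 times in knockout mice, again with no overlap. Over all genes, gonadal pads lay wholly above inguinal pads for 38.7% in control and 46.9% in knockout mice, so such a separation was common. Of 7 other listed genes of the Dlk1-Dio3 domain, 4 were measured in control mice (Begain, Rian, Dio3 and Dio3os) and 3 in knockout mice. Limma called 4 of 4 and 3 of 3 higher in gonadal fat, beside 26.9% and 35.1% of all genes. The filter used the mean over both depots. Begain and Dio3 in control mice, and Begain and Dio3os in knockout mice, passed it only through their gonadal pads. For these genes a higher gonadal level followed from passing. The counts are therefore not evidence of a difference across the domain. Rian, a snoRNA-bearing noncoding RNA of the domain, was higher by 0.98 (SE 0.13, limma adjusted p = 0.00254) in control and 1.07 (SE 0.22, limma adjusted p = 0.00942) in knockout mice, and Begain, at its edge, by 1.54 in each. In the knockout comparisons 0 of 4 gonadal and 0 of 1 inguinal genes of the domain were called by limma or DESeq2, with 1 in each depot at an unadjusted p under 0.05. Begain, Dio3 and Dio3os fell under the filter in inguinal fat. Their means there were 0.385, 0.0587 and 0.114 FPKM in knockout and 0.338, 0.252 and 0.770 in control pads. The authors' deposited table for inguinal fat lists Rian at a log2 fold change of -0.31, Dio3 at -0.79 and Dio3os at -1.26. In gonadal fat Dio3, an enzyme that inactivates thyroid hormone, had a mean of 0.735 FPKM in the knockout and 1.33 in the controls.

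Gas5 and Snhg1 hardly differed between genotypes in gonadal fat and varied between mice in inguinal fat. Gas5 stood at 29.8 ± 2.6 FPKM in knockout and 29.6 ± 2.2 in control gonadal fat (log2 difference 0.01, SE 0.10). In inguinal fat it was 21.6, 14.3 and 27.0 FPKM in M5, M9 and M12 and 28.2, 18.2 and 27.3 FPKM in M6, M7 and M10 (log2 difference -0.24, SE 0.27). M9 and M7 were the lowest knockout and control pads. Snhg1 had the same pair lowest, at 4.98, 3.19 and 5.75 FPKM in the knockout and 6.39, 3.99 and 6.82 FPKM in the control inguinal pads (log2 difference -0.28, SE 0.27). Its gonadal means were 6.50 ± 0.90 FPKM in the knockout and 6.24 ± 0.80 in the controls. These low pads are those with hardly any B and T cell transcripts, whose part in the values was not tested. M9 and M7 were also the lowest inguinal pads of their genotype for Dleu2 and Meg3. Within the pads that held lymphocyte transcripts Gas5 differed by -0.20 and Snhg1 by -0.28 on the log2 scale, and within the pair without by -0.33 and -0.28. Leaving out each mouse moved Gas5 between 0.00 (without M9) and -0.44 (without M7 or without M12), and Snhg1 between -0.06 (without M9) and -0.50 (without M7).

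**Figure D3:**
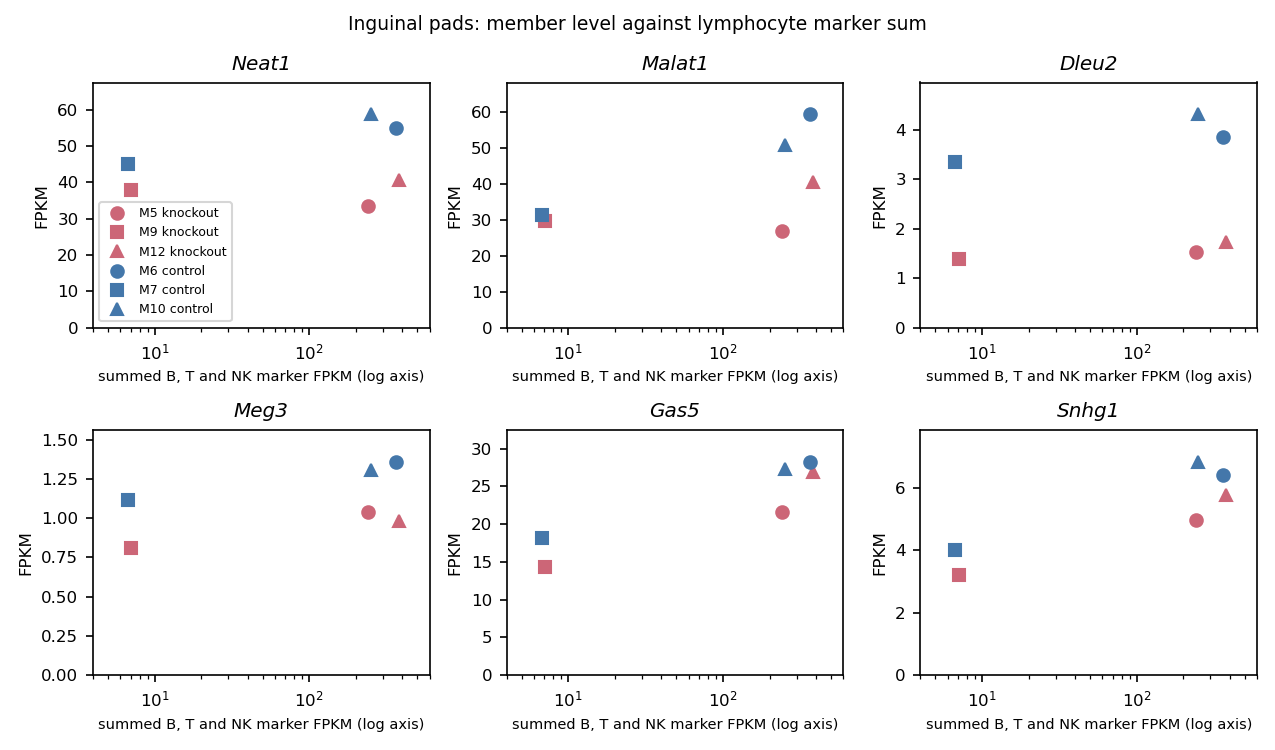
FPKM of the 6 RNAs (y axis, from 0) against the summed FPKM of 11 B, T and NK cell markers (log x axis) in the 6 inguinal pads. M7 and M9, at a sum near 7 FPKM, are the lowest control and knockout pads for Gas5, Snhg1, Dleu2 and Meg3, and Dleu2 separates by genotype at either end of the axis.

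Gas5 and Snhg1 were the closest pair among the 6, at r = 0.94 over 12 pads and 0.93 with the group means subtracted, pads that share depth, mice and cell content. The 15 pairs ranged down to 0.36 (Dleu2 and Meg3). GENCODE M21 places 10 small RNA genes inside Gas5, such as Snord47, and 8 inside Snhg1, such as Snord22. The table scaled Gas5 by 2556 bases, the length of a transcript with a retained intron, while its annotated lincRNA transcripts are 346 to 665 bases, so its level per base of spliced RNA is understated. Of 19 other snoRNA host RNAs 9 were measured. Of these, 8 lay above 0 in gonadal fat (median log2 difference 0.25, against -0.02 over all genes) and 0 in inguinal fat (median -0.15, against -0.10 over all genes), where 3 lay above 0 after TMM scaling. Limma called 0 of 9 in either depot, with 2 and 1 at an unadjusted p under 0.05, and DESeq2 called 0 and 1. Snhg5 and Snhg6 stood at 16.4 and 20.5 FPKM in knockout and 12.7 and 15.9 in control gonadal fat, and Snhg18 at 10.4 in knockout and 17.3 in control inguinal fat (log2 difference -0.71, SE 0.12; limma adjusted p = 0.13).

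**Figure D4:**
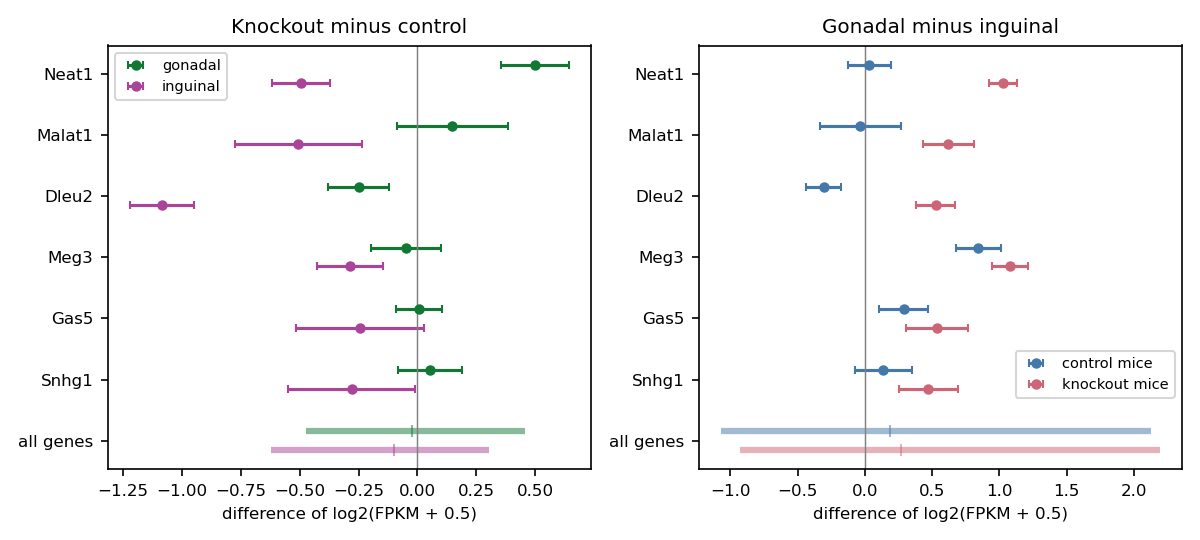
Differences of log2(FPKM + 0.5) on the x axis for the 6 RNAs, with 1 SE as error bars: knockout minus control by depot on the left, gonadal minus inguinal by genotype on the right. The bottom bars give the median and the 5th to 95th percentile of all genes tested; Neat1 lies on opposite sides of 0 in the 2 depots, and Dleu2 lies on opposite sides of 0 in the 2 genotypes.

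Depot differences were read against a shift of all genes, whose median difference, gonadal minus inguinal, was 0.18 in control and 0.27 in knockout mice and became 0.03 and 0.05 after TMM scaling. Marker sums differed between depots too. Macrophage markers summed to 5804 to 12032 FPKM in gonadal and 223 to 1027 FPKM in inguinal pads. Adipocyte markers summed to 6864 to 13563 FPKM in gonadal and 15626 to 27008 FPKM in inguinal pads. Their part in the depot differences was not tested. In knockout mice Neat1 differed by 1.03 (SE 0.10), Malat1 by 0.62 (SE 0.19), Dleu2 by 0.53 (SE 0.15), Meg3 by 1.08 (SE 0.13), Gas5 by 0.54 (SE 0.23) and Snhg1 by 0.47 (SE 0.22), all above the median of all genes. After TMM scaling Neat1 differed by 0.78, Malat1 by 0.37, Dleu2 by 0.33, Meg3 by 0.89, Gas5 by 0.29 and Snhg1 by 0.24. In control mice Neat1 differed by 0.03 (SE 0.16), Malat1 by -0.03 (SE 0.30), Dleu2 by -0.31 (SE 0.13), Meg3 by 0.84 (SE 0.17), Gas5 by 0.29 (SE 0.18) and Snhg1 by 0.14 (SE 0.21). After TMM scaling the control values were -0.14, -0.21, -0.46, 0.71, 0.12 and -0.02 in the same order, with Neat1 and Snhg1 changing sign. Limma called 1 of the 6 in control mice (Meg3), beside 41.4% of all genes, and 4 in knockout mice (all but Gas5 and Snhg1), beside 47.8%. After TMM scaling, and with edgeR or DESeq2, the members called were Dleu2 and Meg3 in control mice and Neat1 and Meg3 in knockout mice. It called 0 of 6 in the knockout comparisons and in their difference between depots, where the share over all genes was 0%, 0.022% and 0%. DESeq2's calls included Neat1 among 313 of 14851 genes in gonadal fat, Dleu2 among 661 of 13621 in inguinal fat and both among 14 of 14577 for the difference between depots, and edgeR called 0 of 6 in each of the 3. The members were chosen with these differences known, so the calls are no support for them. All genes called, higher and lower in gonadal fat, numbered 3904 and 2106 in control mice (3090 and 2839 after TMM scaling) and 5122 and 1849 in knockout mice (3069 and 2959).

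The authors' deposited table for gonadal fat lists Neat1 at a log2 fold change of 0.48 and none of the other 5. The authors' deposited table for inguinal fat lists Neat1 at -0.35, Dleu2 at -1.12 and Meg3 at -0.28. Both tables rest on these same libraries, with a read count column for each. The sources used here do not say whether the 2 libraries of a pad were treated as replicates. With every library as a replicate, limma called 1125 gonadal and 2189 inguinal genes, against 0 and 3 with mice as replicates. Of the genes with a long noncoding type, 35 are listed as higher and 7 as lower in the authors' deposited table for gonadal fat, and 17 and 35 in that for inguinal fat. Over all long noncoding genes measured, the limma fit put 395 of 640 above 0 in gonadal fat (median 0.07) and 161 of 583 above 0 in inguinal fat (median -0.14), and called 0 in each, with 41 and 72 at an unadjusted p under 0.05. DESeq2 called 2 and 13 of them, beside 313 and 661 of all genes tested. Of all genes tested, limma put 6564 of 14851 above 0 in gonadal fat (median -0.02) and 4005 of 13621 in inguinal fat (median -0.10).

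The proteins of the nuclear bodies of Neat1 and Malat1 are described by counts, since limma called only 0% of all genes in gonadal fat and 0.022% in inguinal fat. Of all genes, 6564 of 14851 lay above 0 in gonadal fat and 4005 of 13621 in inguinal fat. Of 20 paraspeckle proteins 10 lay above 0 in gonadal fat (median -0.03) and 1 in inguinal fat (median -0.16; 5 above 0 after TMM scaling, 7 with DESeq2), and limma and DESeq2 called 0, with 0 and 3 at an unadjusted p under 0.05. Sfpq, a core paraspeckle protein, stood at 28.6 FPKM in knockout and 38.0 in control inguinal fat (log2 difference -0.42, SE 0.14; limma adjusted p = 0.27) and at 50.6 and 55.8 in gonadal fat. Of 20 nuclear speckle proteins 9 lay above 0 in gonadal fat (12 after TMM scaling, 15 with DESeq2) and 0 in inguinal fat (median -0.19; 2 above 0 after TMM scaling, 3 with DESeq2). Limma and DESeq2 called 0 of the 20, with 0 at an unadjusted p under 0.05 in each depot. Srsf5, a splicing factor, had means of 98.6 FPKM in knockout and 85.6 in control gonadal fat, and 55.7 and 66.5 in inguinal fat. In knockout mice limma called 13 of the 20 paraspeckle and 14 of the 20 speckle proteins higher in gonadal than in inguinal fat, and in control mice 5 and 1, beside 35.1% and 26.9% of all genes called higher. DESeq2 called 6 and 8 of them higher in knockout mice, beside 3598 of 14593 genes.

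Genes tied to the start and the decay of Gas5 and Snhg1 transcripts are read against the same shares of all genes called, 0% and 0.022%. All 15 measured translation genes with a terminal pyrimidine tract lay below 0 in both depots (median -0.12 and -0.30), and limma and DESeq2 called 0 in each, with 0 at an unadjusted p under 0.05 by limma. Of all genes, 8287 of 14851 lay below 0 in gonadal fat (median -0.02) and 9616 of 13621 in inguinal fat (median -0.10). Pabpc1, the poly(A)-binding protein, had means of 142 FPKM in knockout and 190 in control inguinal fat. Of 14 nonsense-mediated decay factors 5 lay above 0 in gonadal and 1 in inguinal fat (6 and 7 after TMM scaling), with 0 called by either tool and 0 at an unadjusted p under 0.05. Of 12 p53 targets 6 lay above 0 in each depot, with 0 called by limma, 1 and 5 at an unadjusted p under 0.05 and 2 called lower by DESeq2 in inguinal fat. Sesn2, a stress-induced inhibitor of mTOR signalling, stood at 8.02 FPKM in knockout and 15.5 in control inguinal fat (log2 difference -0.89, SE 0.17; limma adjusted p = 0.14). Of 38 other named long noncoding RNAs 11 were measured in gonadal fat and 10 in inguinal fat, with 6 and 2 above 0 (7 and 4 after TMM scaling) and 0 called by limma or DESeq2, beside 0 and 4 at an unadjusted p under 0.05. H19, an imprinted growth-restraining RNA, stood at 2.78 FPKM in knockout and 6.14 in control inguinal fat and at 3.09 and 1.92 in gonadal fat.

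**Figure D5:**
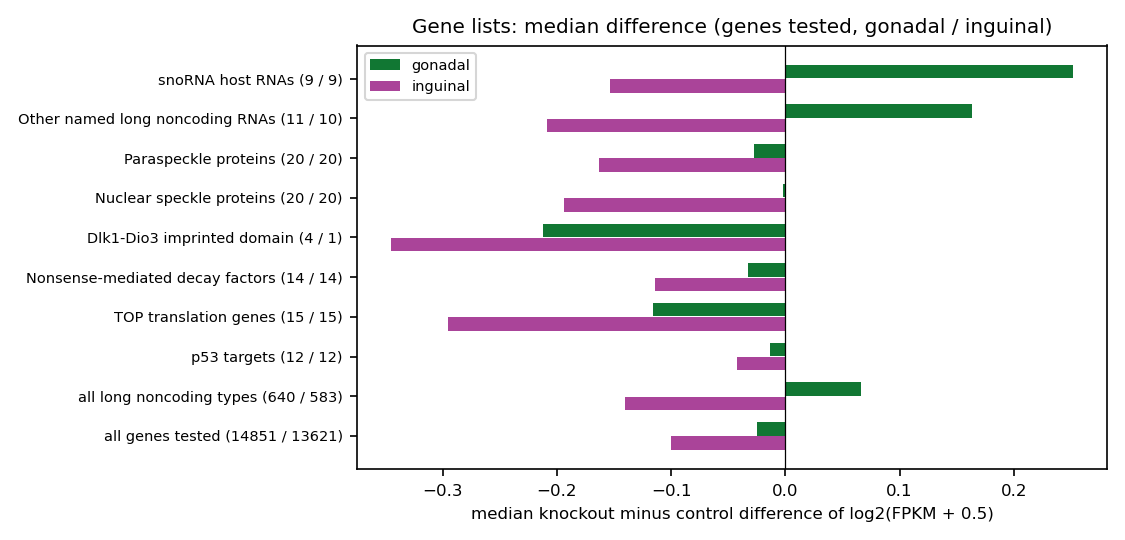
Median knockout minus control difference of log2(FPKM + 0.5) (x axis, bars from 0) for each gene list and for all genes, with the number of genes tested in gonadal and inguinal fat in brackets. The median of the snoRNA host RNAs is 0.25 in gonadal and -0.15 in inguinal fat, and that of all long noncoding types is 0.07 and -0.14. For all genes it is -0.02 and -0.10.

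Genes whose level followed a member most closely over the 12 pads were taken among 12150 genes by Pearson's r of log2(FPKM + 0.5), a description of pads that share mice, depth and group. For Neat1 they were Ppp2r3d (0.95), Spaca6 (0.93) and Zfp560 (0.90), and with the group means subtracted Fam43a (0.90), U2af1l4 (0.88) and Trib2 (0.87). Malat1 was followed by Sugp2 (0.93), Herc1 (0.93) and Brf1 (0.92), and Dleu2 by Prtn3 (0.94), Slirp (0.94) and Spon1 (0.93). Meg3 was followed by Nlgn2 (0.99), Apoe (0.98) and Stab1 (0.98), which is found on macrophages and sinusoidal endothelium. Gas5 was followed by Sfi1 (0.99), Arhgap27 (0.97) and Zfp958 (0.97), and Snhg1 by Anapc15 (0.97), Zcchc9 (0.96) and the T cell receptor segment Tcrg-C1 (0.95).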

How the data were processed

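The authors deposited FPKM for 35275 genes in 24 libraries, and comparison tables with read counts, group means (a signal scaled by size factors), log2 fold changes and p-values for the genes listed as changed, per the file headers. RNA came from a Qiagen kit and libraries from a NEBNext Ultra kit, per the labels' protocols; CASAVA, STAR and mm10 are named in the submitters' processing notes, the sources used here name no counter, strand setting or poly(A) selection. Library names, read as z knockout, f control, e gonadal and s inguinal, gave the groups; that meaning, and the animal numbers in them, were inferred. Both libraries of a pad were averaged, with the mouse as the replicate; 24 FPKM columns of the comparison tables were not used. Limma 3.58.1 (R 4.3.3, trend, two-sided) was fitted on log2(FPKM + 0.5) over genes with a mean of at least 0.5 FPKM, with Benjamini-Hochberg adjustment over all genes; fold changes on that scale understate those of low genes. Reads rebuilt from FPKM, gene length and depth were whole for 100% of values (tolerance 0.001) and were tested with edgeR 4.0.16 and DESeq2 1.42.0 as alternatives. The fit was tested on simulated data. The members and lists were chosen with earlier results of these data known. Named genes are the members, their neighbours, the 3 genes most correlated with each, and up to 4 genes of smallest p per list. Pads were split by marker content, and libraries by name, after the data were seen.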

Additional observations from a re-analysis of the deposited data

Results flagged for a closer look

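Neat1 was flagged because its knockout difference pointed in opposite directions in the 2 depots. The knockout to control ratio was 1.41 in gonadal fat, where every knockout pad lay above every control pad. It was 0.705 in inguinal fat, where every knockout pad lay below every control pad. These pad values are means of 2 libraries. With the first library alone the inguinal groups overlapped, and with the second alone the gonadal groups overlapped. The knockout difference in gonadal minus inguinal fat was 0.99 (SE 0.20) on the log2 scale; limma and edgeR called 0 of 14577 genes for that difference, and DESeq2 called 14, Neat1 among them. Neat1 was chosen with these values known, so the difference was not tested independently of that choice.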

How the results depend on the processing

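The knockout differences of Neat1, Dleu2 and Meg3 in inguinal fat and of Neat1 and Dleu2 in gonadal fat kept their sign under each of the 13 or 14 other settings that gave a value (other pseudocounts, filters, scalings and tools, and each mouse left out); Neat1 ranged from 0.41 (without M6) to 0.64 (without M10) in gonadal fat and from -0.60 (without M7) to -0.38 (DESeq2) in inguinal fat. These ranges leave out the splits of libraries and pads made after the data were seen. With the first library alone Neat1 differed by 0.67 in gonadal fat, and with the second alone by 0.33. It differed by 0.38 in gonadal pads with epididymal transcripts and by 0.64 in those without. In inguinal fat it differed by -0.62 in pads with lymphocyte transcripts and by -0.25 in the pair without. Leaving out mice turned small differences of Malat1, Meg3, Gas5 and Snhg1 in gonadal fat and of Gas5 in inguinal fat. The number of genes called in gonadal fat was 313 with DESeq2, 1125 with every library as a replicate and 0 to 1 when each mouse was left out (1 without M10). In inguinal fat it was 661, 2189 and 0 to 78 (78 without M7, 0 without each other mouse). For gonadal against inguinal fat it was 9100 with every library as a replicate and 1534 (without M10) to 5257 when each mouse was left out in control mice, and 3047 (without M5) to 5911 in knockout mice (4138 without M9). For the difference between depots it was 14 with DESeq2 and 265 with every library as a replicate; the cause was not tested. For knockout against control, no paired analysis was possible because the animals differ and the columns carry no replicate numbers of the labels. Between depots, paired by the animal number in the column names, with the mouse as a replicate block, 5092 genes were called in control and 6365 in knockout mice and 0 for the difference between depots, and Dleu2 lost its call in knockout mice; deviations of the pads of a mouse correlated at -0.095 to 0.14. Dleu2 rests on the fewest reads of the 6, 91 to 295 per library.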
